A study of Mus musculus with 10 samples.

Results

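The genes described here make, bind and read retinoic acid, the active acid form of vitamin A. The 9 genes were the rows of the deposited count table with the symbols Aldh1a1, Aldh1a2, Aldh1a3, Rdh10, Dhrs3, Crabp2, Rara, Rarb and Rarg, of 22457 rows in all. The set was selected on the measured fall of Aldh1a3, which was among the largest between the groups. The values of these genes in the comparison of M3-CKO with Ctrl are therefore given as a description and support nothing further.

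The samples were mouse (Mus musculus) tracheal epithelial organoids, hollow or solid cell clusters grown in a gel from basal cells, which renew the lining of the trachea. Ctrl organoids came from control mice, and M3-CKO organoids from mice that the series title describes as Mettl3 knockouts. Mettl3 encodes the enzyme that writes N6-methyladenosine on messenger RNA. Each group had 3 RNA-seq libraries, harvested on day 14. The 4 other libraries of the series (m6A immunoprecipitation and input, 1 of each per group) were not analysed here. The sources used here do not give the deleted part of Mettl3, any Cre driver, the strain, the age or the number of mice. Nor do the labels say whether replicates are separate mice or cultures, so every p-value measures only how these libraries vary, and that variation may be technical.

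All groups received retinoic acid from outside. Per the labels, the growth medium held 50 nM all-trans retinoic acid and the differentiation medium 50 nM retinoic acid, and the growth medium also held A83-01 and DMH-1, inhibitors of TGF-beta and BMP receptors. The day of the change of medium is not given. The transcripts below were thus measured in cells that had the ligand supplied, whatever their own synthesis.

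Retinoic acid is made from retinol in a pair of oxidation steps. Retinol dehydrogenases such as Rdh10 turn retinol into retinal, Dhrs3 turns retinal back into retinol, and the retinaldehyde dehydrogenases Aldh1a1, Aldh1a2 and Aldh1a3 oxidise retinal irreversibly to retinoic acid. Crabp2 carries the acid to the nucleus, where the receptors Rara, Rarb and Rarg bind DNA together with retinoid X receptors. In airway epithelium vitamin A is known for keeping the lining mucociliary, and its lack for turning it squamous.

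One sequence bears on how these genes are read. The receptors bind pairs of a 6-base half-site, and a pair 5 bases apart is the textbook response element of Rarb. RefSeq promoter windows on build GRCm38.p6 (250 bases before a start site to 50 after it) were found for 6 of the 9 genes, 13 windows in all. The windows were searched on both strands for the half-sites AGGTCA or AGTTCA or GGGTCA or GGTTCA. A pair in the same orientation, 5 bases apart, occurred in 0.0974% of 32851 windows (32 windows). Among the 6 genes with a window it occurred only in Rarb. Aldh1a3, Rdh10 and Crabp2 had no window and were not searched. The receptor windows are shown because the 3 receptors differed in direction between the groups. The Rarb window lies at chr14:16575427-16575726 on the minus strand, and the windows shown of Rara and Rarg, those of each gene with the most half-sites, at chr11:98939461-98939760 on the plus strand and chr15:102257473-102257772 on the minus strand. Each is written 5′ to 3′ with half-sites in capitals. The windows read as follows.
Rarb: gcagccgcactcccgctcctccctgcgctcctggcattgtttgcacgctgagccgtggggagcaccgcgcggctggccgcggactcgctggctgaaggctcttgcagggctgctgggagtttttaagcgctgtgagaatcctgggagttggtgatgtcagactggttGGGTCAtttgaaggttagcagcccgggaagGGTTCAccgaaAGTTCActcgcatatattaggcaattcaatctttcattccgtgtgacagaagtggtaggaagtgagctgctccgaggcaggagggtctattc
Rara: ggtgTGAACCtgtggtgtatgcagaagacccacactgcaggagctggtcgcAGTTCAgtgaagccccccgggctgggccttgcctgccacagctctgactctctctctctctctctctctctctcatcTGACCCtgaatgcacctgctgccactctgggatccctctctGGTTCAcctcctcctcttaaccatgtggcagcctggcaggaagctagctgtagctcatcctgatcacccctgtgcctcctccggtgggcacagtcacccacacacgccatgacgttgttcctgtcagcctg
Rarg: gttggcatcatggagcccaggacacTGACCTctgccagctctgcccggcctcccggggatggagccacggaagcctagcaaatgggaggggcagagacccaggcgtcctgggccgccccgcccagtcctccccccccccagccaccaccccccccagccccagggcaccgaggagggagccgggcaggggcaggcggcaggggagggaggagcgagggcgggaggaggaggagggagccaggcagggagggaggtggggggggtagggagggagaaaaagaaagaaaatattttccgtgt

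The Rarb window held 3 half-sites, and the last 2 of them form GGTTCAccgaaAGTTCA, from 53 to 37 bases before the start site. The Rara window held 4 half-sites and the Rarg window 1, with no pair 5 bases apart. Of the 8 tested genes whose window held such a pair, Rarb included, edgeR called 0 in either direction. Their median log2 fold change was -0.20. Over all tested genes 2.91% were called and the median was 0.02, so nothing is read from 0 calls among 8 genes. These letters show a match, not that a receptor was bound there.

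Where 3 values are listed for a group, they follow the order of replicates 1, 2 and 3. Library totals ran from 8906375 to 10485922 counts, so 10 CPM (counts scaled to library size with TMM factors) rested on 87.6 to 103.6 counts. Of the 22457 genes, 13528 passed the filter on low counts, and 8 of the 9 retinoic acid genes did. The targeted gene Mettl3 measured 14.96, 17.0 and 18.9 CPM across Ctrl against 11.1, 10.3 and 9.87 across M3-CKO (log2 fold change -0.70, SE 0.21, adjusted p = 0.12 in edgeR's quasi-likelihood test). M3-CKO replicate 3 stood apart from replicates 1 and 2: its Pearson r of log2(CPM + 1) across genes was 0.969 and 0.965 with them and 0.971 to 0.973 with the Ctrl libraries, against 0.994 between replicates 1 and 2. The summed level of the 7 club cell markers (secretory cells of the airway) was 6845 to 7450 CPM in Ctrl, 3504 and 2936 CPM in M3-CKO replicates 1 and 2, and 8871 CPM in replicate 3. Cbr2 and Cyp2f2 were most of that sum, with means of 3875 and 2641 CPM in Ctrl and 2405 and 1760 CPM in M3-CKO. Not each marker followed the sum, and Scgb1a1 was higher in every M3-CKO library. The 4 epithelial markers Epcam, Cdh1, Krt8 and Krt18 summed to 2057 to 2594 CPM in Ctrl and 1865 to 2966 CPM in M3-CKO. In bulk RNA, fewer cells of a type and less RNA per cell cannot be told apart.

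Among the enzymes that make retinoic acid, Aldh1a3 is the one whose fall chose the set. It measured 162, 102 and 73.1 CPM across Ctrl against 8.88, 7.99 and 23.3 across M3-CKO. Every M3-CKO library lay below every Ctrl library. The mean fell from 112 ± 45.6 to 13.4 ± 8.59 CPM (SD, n = 3), to 11.9% of Ctrl, with a log2 fold change of -3.07 (SE 0.49). M3-CKO replicates 1 and 2 averaged 7.50% of the Ctrl mean and replicate 3 reached 20.7%. The summed markers of basal cells, and of hillock and squamous cells (genes such as Krt4 and Krt13), were also lower in all M3-CKO libraries, though not each marker. The 6 basal markers summed to 1942 to 2386 CPM in Ctrl and to 679 to 1094 CPM in M3-CKO, and 3 of the 6 (Krt5, Krt14 and Krt15) were called lower, where 1.16% of all tested genes were. For Trp63, Ngfr and Pdpn the groups overlapped. Of the 6 basal markers 2 were called with a replicate block, and 0 or 1 without any 1 library other than M3-CKO replicate 3. Over all tested genes these counts were 20, and 0 to 18. The hillock and squamous markers (7 tested, Krt4 and Sprr1a called lower and Lor higher) summed to 646 to 778 CPM in Ctrl and to 219 to 302 CPM in M3-CKO. Krt4 was the largest part of that sum, with a mean of 541 CPM in Ctrl and 153 CPM in M3-CKO. The part of these cell types in the Aldh1a3 value was not tested.

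Aldh1a1, the retinaldehyde dehydrogenase that many epithelia express, split the M3-CKO group. It measured 97.7, 137 and 126 CPM across Ctrl against 47.1, 35.1 and 164 across M3-CKO. Replicates 1 and 2 lay below every Ctrl library and replicate 3 above every one. Its log2 fold change was -0.55 (SE 0.53, adjusted p = 0.62), and -1.55 (SE 0.19, adjusted p = 0.0015) without M3-CKO replicate 3. Aldh1a7 is a close mouse relative of Aldh1a1, and reads of one may have been counted for the other. Its M3-CKO replicate 3 was also the highest of the group but lay below every Ctrl library, with 78.7, 61.8 and 70.3 CPM across Ctrl against 18.8, 17.2 and 58.0 across M3-CKO. For Aldh1a7 the log2 fold change was -1.16 (SE 0.45, adjusted p = 0.20), and -1.97 (SE 0.16, adjusted p = 3.8e-04) without replicate 3.

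For some club cell markers too, M3-CKO replicates 1 and 2 lay below every Ctrl library while replicate 3 did not. Cbr2 and Cyp2f2 are shown as examples and were not fixed in advance. Unlike Aldh1a1, both had replicate 3 inside the Ctrl range and not above it. Other club cell markers did not share this. Scgb3a2 had the order of Aldh1a1, with 30.5, 30.2 and 37.3 CPM across Ctrl against 22.7, 9.81 and 247 across M3-CKO. Scgb3a1 also had replicate 3 above every Ctrl library, with 116, 267 and 281 CPM across Ctrl against 123, 69.7 and 979 across M3-CKO. Cbr2, a carbonyl reductase of club cells, measured 3841, 3784 and 4001 CPM across Ctrl against 1641, 1576 and 3998 across M3-CKO. Cyp2f2, a club cell cytochrome P450, measured 2607, 2794 and 2520 CPM across Ctrl against 1418, 1068 and 2793 across M3-CKO. In 5 of the 6 tested club cell markers, replicates 1 and 2 on average and replicate 3 lay on opposite sides of the Ctrl mean, as they did for 43.1% of all tested genes. The exception was Scgb1a1, the main secretory protein of club cells, with 5.57, 4.33 and 2.81 CPM across Ctrl against 83.2, 37.5 and 359 across M3-CKO. It was the only one of the 6 that edgeR called (log2 fold change 5.23, SE 0.89, adjusted p = 0.033), and it was not called by limma-voom, with a replicate block or without any 1 of the Ctrl libraries or M3-CKO replicate 1. The part of club cells in the Aldh1a1 and Aldh1a7 values was not tested.

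Aldh1a2, the enzyme best known from embryonic and mesenchymal cells, had 0 counts in 5 libraries and 2 counts in M3-CKO replicate 1. It did not pass the filter and was not tested. A count of 0 allows up to 3 counts, which is 0.290 to 0.342 CPM depending on the library, so no difference was detectable at this depth. Of 8 mesenchymal markers 4 had a row. Col1a1 and Dcn had at most 0.562 CPM in any library, while Fbln1 stood at 20.9 to 41.8 CPM over all 6 libraries. Pdgfra measured 3.38 to 11.8 CPM across Ctrl against 1.26 to 2.95 across M3-CKO (adjusted p = 0.092).

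The enzymes that pass retinol and retinal back and forth differed less. Rdh10, which makes retinal, measured 45.2, 60.6 and 63.9 CPM across Ctrl against 50.3, 56.9 and 29.7 across M3-CKO. Only replicate 3 lay below the Ctrl range, and the log2 fold change was -0.31 (SE 0.27, adjusted p = 0.57). Dhrs3, which turns retinal back into retinol, measured 664, 404 and 425 CPM across Ctrl against 307, 279.6 and 604 across M3-CKO. As for Aldh1a1, M3-CKO replicates 1 and 2 were below every Ctrl library while replicate 3 was not. Dhrs3 differed by -0.33 on the log2 scale (SE 0.34, adjusted p = 0.65), and -0.77 (SE 0.22, adjusted p = 0.037) without M3-CKO replicate 3.

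**Figure D1:**
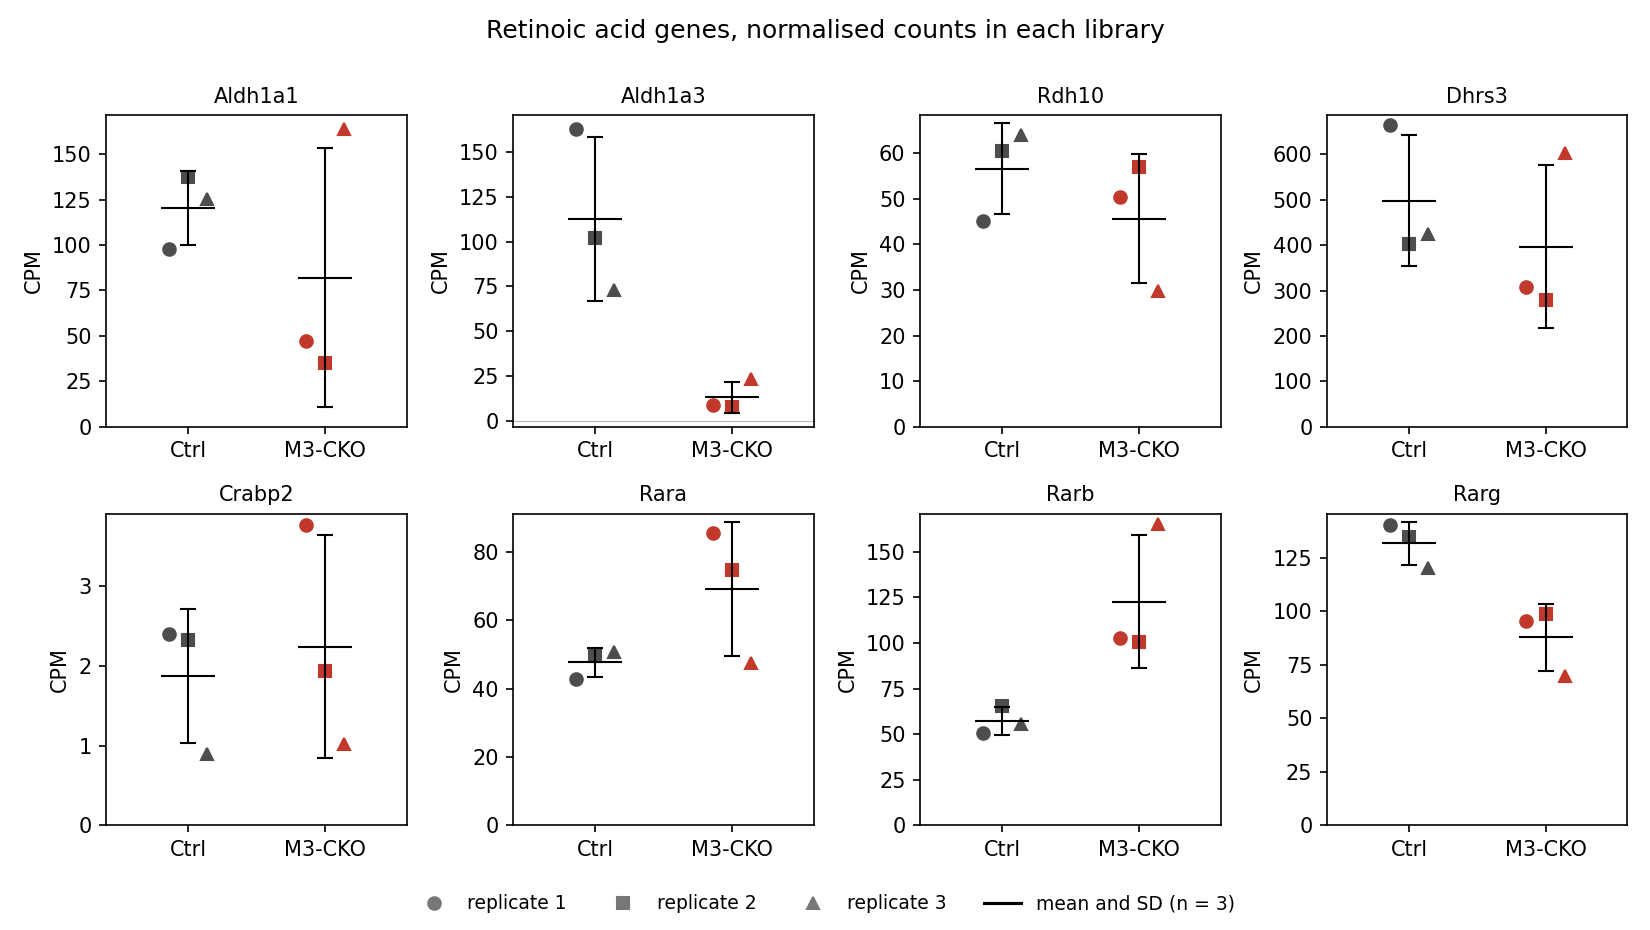
Level of each of the 8 tested retinoic acid genes in CPM (vertical axis, from 0, scaled per gene) in the 3 Ctrl and 3 M3-CKO libraries, with the mean and SD as black bars. Aldh1a3 and Rarg are lower and Rarb higher in every M3-CKO library. For Aldh1a1, Dhrs3 and Rara, M3-CKO replicates 1 and 2 are both below or both above every Ctrl library, and replicate 3 (triangle) is not with them. Replicate 3 also differs from the other 2 for further genes, at 2.76 times their mean for Aldh1a3 and 0.554 times for Rdh10.

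Crabp2, the carrier of retinoic acid to its receptors, was near the lower limit of what could be measured. It had 22, 22 and 8 counts across Ctrl against 39, 17 and 10 across M3-CKO. The groups overlapped, with 1.88 ± 0.847 CPM in Ctrl and 2.24 ± 1.40 in M3-CKO (SD, n = 3). Its log2 fold change, 0.26 (SE 0.61, adjusted p = 0.86), changed sign when single libraries were left out.

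The 3 receptors did not move together. Rarb measured 50.6, 65.4 and 55.8 CPM across Ctrl against 103, 101 and 165 across M3-CKO. Every M3-CKO library was above every Ctrl library, and replicate 3 was the highest. The mean was 57.3 ± 7.55 CPM in Ctrl and 123 ± 36.7 in M3-CKO (SD, n = 3), a ratio of 2.14. The log2 fold change of 1.10 (SE 0.23) missed the threshold of 0.05 narrowly in edgeR (adjusted p = 0.051) and passed it in the DESeq2 Wald test (adjusted p = 0.0018). Over its 13 alternatives the adjusted p ran from 0.0018 to 0.21, and the log2 fold change from 0.82 to 1.23.

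Rarg, the receptor known from stratified epithelia such as skin, lay the other way. It measured 140.3, 135 and 120.4 CPM across Ctrl against 95.3, 98.6 and 69.98 across M3-CKO. All 3 M3-CKO libraries were below the lowest Ctrl library, at a mean of 66.8% of Ctrl. The log2 fold change was -0.58 (SE 0.17, adjusted p = 0.12), and -0.45 (SE 0.12, adjusted p = 0.028) without M3-CKO replicate 3. Rara, the most widely expressed of the receptors in the body, measured 42.9, 49.6 and 50.8 CPM across Ctrl against 85.6, 74.6 and 47.5 across M3-CKO. Replicates 1 and 2 were above every Ctrl library and replicate 3 was inside the Ctrl range. Its log2 fold change was 0.54 (SE 0.23, adjusted p = 0.24), and 0.74 (SE 0.14, adjusted p = 0.0068) without replicate 3.

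**Figure D2:**
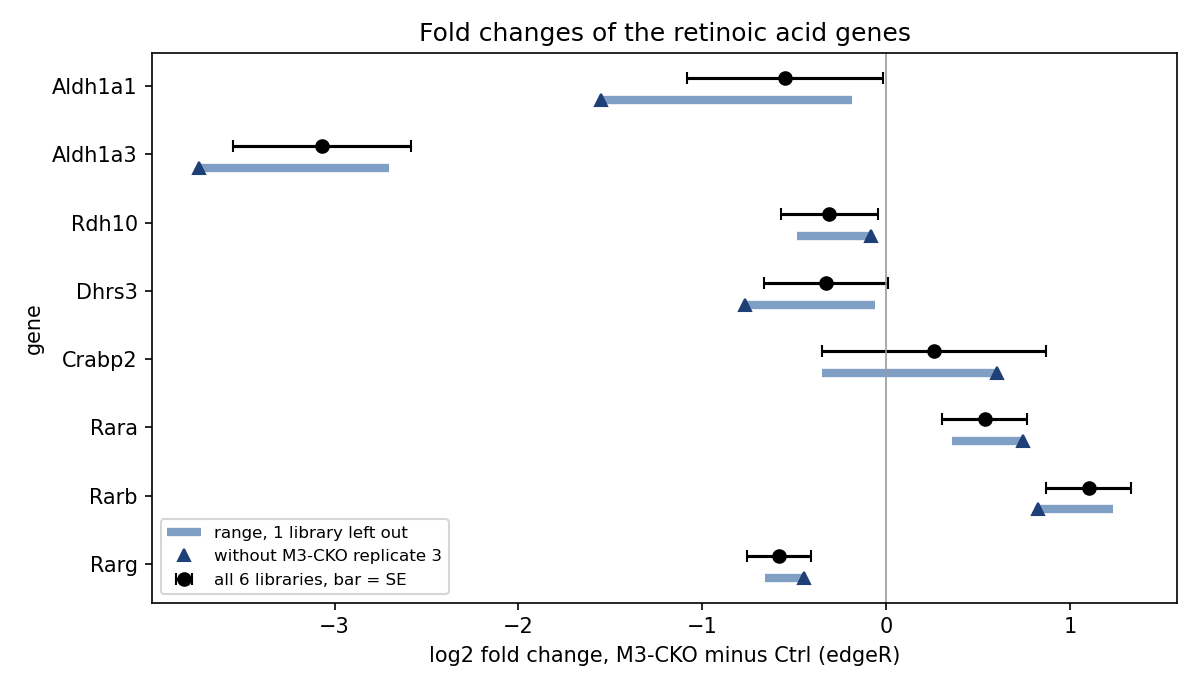
Log2 fold change of M3-CKO over Ctrl (horizontal axis) for the 8 tested retinoic acid genes: black points with the SE use all 6 libraries, blue bars span the values with 1 library left out, and triangles leave out M3-CKO replicate 3. Aldh1a3 lies farthest from 0 at -3.07, Rarb lies at 1.10, and the range of Crabp2 crosses 0.

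Counted over the set, 1 of the 8 tested genes (Aldh1a3, by which the set was selected) was called at an adjusted p under 0.05, where 2.91% of all 13528 tested genes were called. At an unadjusted p under 0.05 there were 3 (Aldh1a3, Rarb and Rarg), against 20.5% of all tested genes. The groups did not overlap for the same 3, 1 higher and 2 lower in M3-CKO, against 27.1% of all tested genes (13.7% higher and 13.5% lower). The median log2 fold change was -0.32 over the 8 genes and 0.02 over all tested genes. DESeq2 called 2 of the 8 genes, Aldh1a3 and Rarb, where it called 7.54% of 15908 genes. Nothing is read from these counts, since the contrast chose the set.

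The calls depended on single libraries. Without M3-CKO replicate 3, edgeR called 6 of the 8 genes, where it called 25.0% of 13930 tested genes: Aldh1a1, Aldh1a3, Dhrs3 and Rarg were lower, and Rara and Rarb higher. Those calls rest on M3-CKO replicates 1 and 2, which lay closer together than any pair of Ctrl libraries (r 0.994 against 0.987 to 0.991). Without any 1 of Ctrl replicates 1, 2 and 3 or M3-CKO replicates 1 and 2, 0 of the 8 genes were called by edgeR. Over all genes edgeR called 0, 1, 0, 14 and 18 in the same order, of 13868 to 14014 tested. The lack of calls there is thus not particular to these genes. In each case 3 of the 8 had an unadjusted p under 0.05. The log2 fold change of Aldh1a3 stayed between -3.74 and -2.70 whichever library was left out.

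For 4 of the 8 genes (Aldh1a1, Dhrs3, Rara and Crabp2) the mean of M3-CKO replicates 1 and 2 and the value of replicate 3 lay on opposite sides of the Ctrl mean. Over all tested genes this was so for 43.1%. As a ratio, replicate 3 over the mean of replicates 1 and 2, Aldh1a1 had the widest gap of the 8 at 3.98: replicates 1 and 2 averaged 34.2% of the Ctrl mean, and replicate 3 reached 136%. Rarb was above Ctrl in both, at 177% and 288%, and Rarg below in both, at 73.6% and 53.1%.

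**Figure D3:**
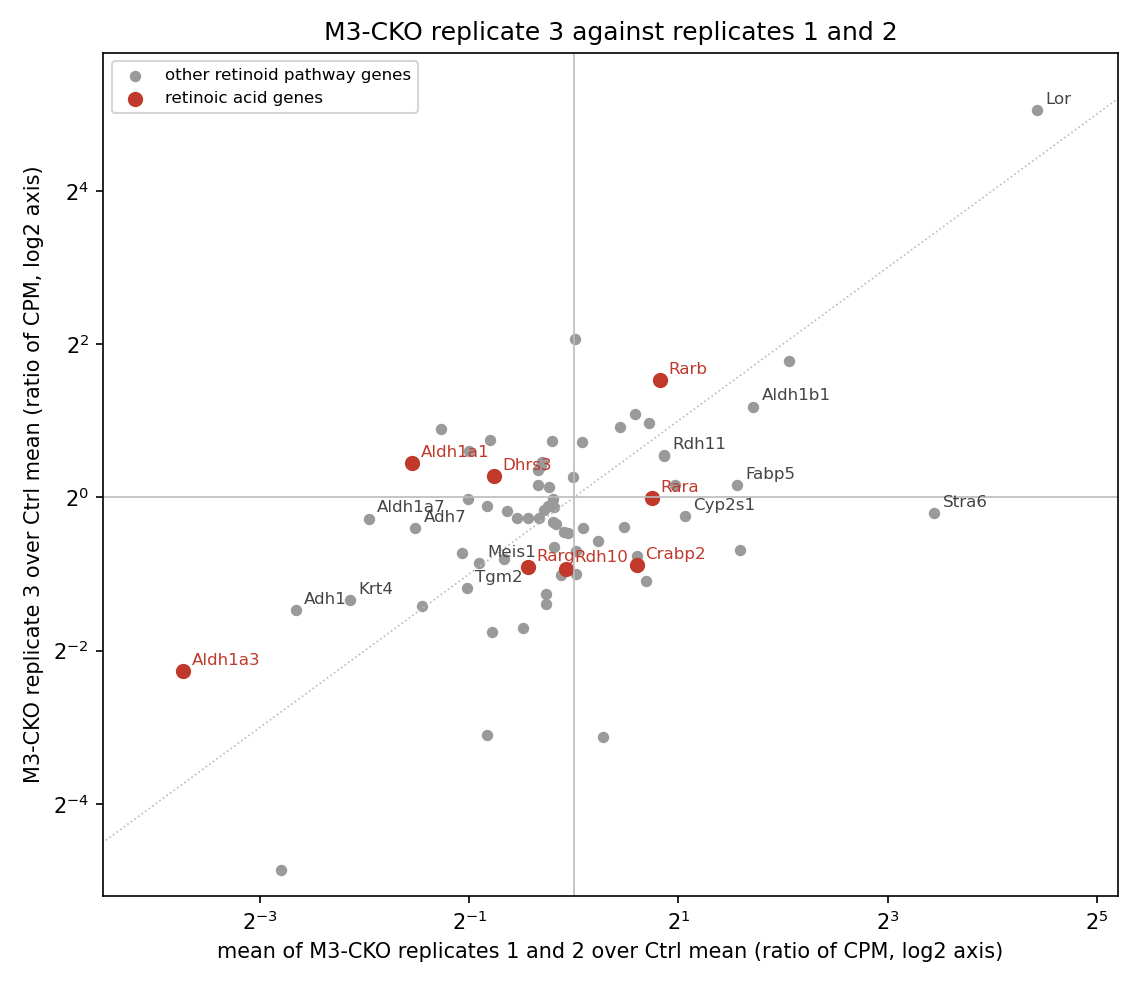
Ratio of CPM to the Ctrl mean for M3-CKO replicates 1 and 2 (mean, horizontal log2 axis) and for replicate 3 (vertical log2 axis). Red points are the 8 retinoic acid genes and grey points the other tested retinoid pathway genes, except Rdh9, which had 0 counts in replicate 3. Points in the upper left and lower right, such as Aldh1a1, Dhrs3 and Stra6, lie on opposite sides of the Ctrl mean in the replicates.

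The rest of the pathway was read from 7 lists of other genes, which held 92 symbols. Of these 76 had a row and 65 were tested. By edgeR 2 were called higher (Aldh1b1 and Lor) and 3 lower (Meis1, Krt4 and Sprr1a) in M3-CKO, against 1.74% and 1.16% of all tested genes. Lor, Krt4 and Sprr1a come from the list of squamous genes, which do not themselves handle retinoids. At an unadjusted p under 0.05 there were 10 higher and 12 lower, where 20.5% of all tested genes passed in either direction. DESeq2 called 14 of 68, where it called 7.54% of all genes. The median log2 fold change was -0.18. Genes named in the following paragraphs are those the naming rule picked or fixed, unless they are said to be chosen after their values were seen.

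Uptake, transport and storage of retinol had 8 tested genes of 16 listed, of which edgeR called 0. In this list 4 genes had an unadjusted p under 0.05, all higher in M3-CKO. Of all 13528 tested genes, 1571 were higher and 1203 lower at that threshold. DESeq2 called 2 of the 10 it tested in this list, where it called 7.54% of all genes. Stra6, the cell surface receptor that takes up retinol, measured 7.21, 4.23 and 4.04 CPM across Ctrl against 65.0, 47.5 and 4.48 across M3-CKO. Replicates 1 and 2 averaged 10.9 times the Ctrl mean while replicate 3 stayed inside the Ctrl range. Stra6 differed by 2.91 on the log2 scale (SE 0.83, adjusted p = 0.10), and 3.44 (SE 0.27, adjusted p = 3.6e-04) without replicate 3. Rbp4, the carrier of retinol in blood, was low in all libraries, at 0.529 to 1.09 CPM in Ctrl and 2.51 to 4.15 CPM in M3-CKO with no overlap (1.95, SE 0.47, adjusted p = 0.069).

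Fabp5, a fatty acid binding protein that can also carry retinoic acid, measured 3.26 to 3.82 CPM across Ctrl against 10.7, 10.3 and 3.97 across M3-CKO (log2 fold change 1.22, SE 0.42, adjusted p = 0.16). Its replicate 3 was barely above the Ctrl range. Lrat, which stores retinol as esters, had at most 0.407 CPM in any library. Crabp1 has no row and so no value here.

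The other retinol and retinal oxidoreductases included 15 tested genes of 23 listed. By edgeR 0 of them were called, while 3 lay higher and 2 lower at an unadjusted p under 0.05. DESeq2 called 4 of the 16 it tested in this list, where it called 7.54% of all genes. The alcohol dehydrogenases Adh1 and Adh7, which can oxidise retinol, were the lower pair, of which Adh1 was picked only once its values were known. Adh5, another alcohol dehydrogenase of the list and also picked afterwards, had means of 49.6 CPM in Ctrl and 49.4 CPM in M3-CKO. Its groups overlapped (log2 fold change -0.006, SE 0.24, adjusted p = 0.99 in edgeR). Adh1 measured 20.5, 11.8 and 15.2 CPM across Ctrl against 3.77, 1.26 and 5.70 across M3-CKO (log2 fold change -2.14, SE 0.51, adjusted p = 0.069). Adh7, the enzyme of upper digestive and airway epithelium, measured 441, 393 and 329 CPM across Ctrl against 153, 118 and 294 across M3-CKO (-1.04, SE 0.33, adjusted p = 0.13). For Adh1 and Adh7 no M3-CKO library reached the Ctrl range, and M3-CKO replicate 3 was the highest of its group.

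Rdh11, a retinal reductase, was higher in every M3-CKO library, at 77.5 to 105 CPM against 43.9 to 58.1 in Ctrl (log2 fold change 0.76, SE 0.18, adjusted p = 0.069). Dhrs9, a retinol dehydrogenase of epithelia, differed by -0.79 on the log2 scale (SE 0.38, adjusted p = 0.30). Among 5 tested relatives of the retinaldehyde dehydrogenases, Aldh1b1 rose in M3-CKO. This mitochondrial aldehyde dehydrogenase measured 7.97, 7.61 and 6.96 CPM across Ctrl against 23.0, 26.4 and 17.1 across M3-CKO (1.56, SE 0.24, adjusted p = 0.029). Its adjusted p was 0.097 to 0.16 without any 1 library other than M3-CKO replicate 3, and 0.082 with a replicate block.

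Breakdown of retinoic acid was covered by 2 tested genes of 4 listed, with 0 called by edgeR or DESeq2 and 0 at an unadjusted p under 0.05. Over all genes these shares were 2.91%, 7.54% and 20.5%. Cyp26b1, a cytochrome P450 that inactivates retinoic acid and is induced by it, measured 504, 472 and 302 CPM across Ctrl against 319, 356 and 354 across M3-CKO. The M3-CKO libraries fell inside the Ctrl range (log2 fold change -0.31, SE 0.21, adjusted p = 0.46). Cyp26a1 has no row and so no value here.

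**Figure D4:**
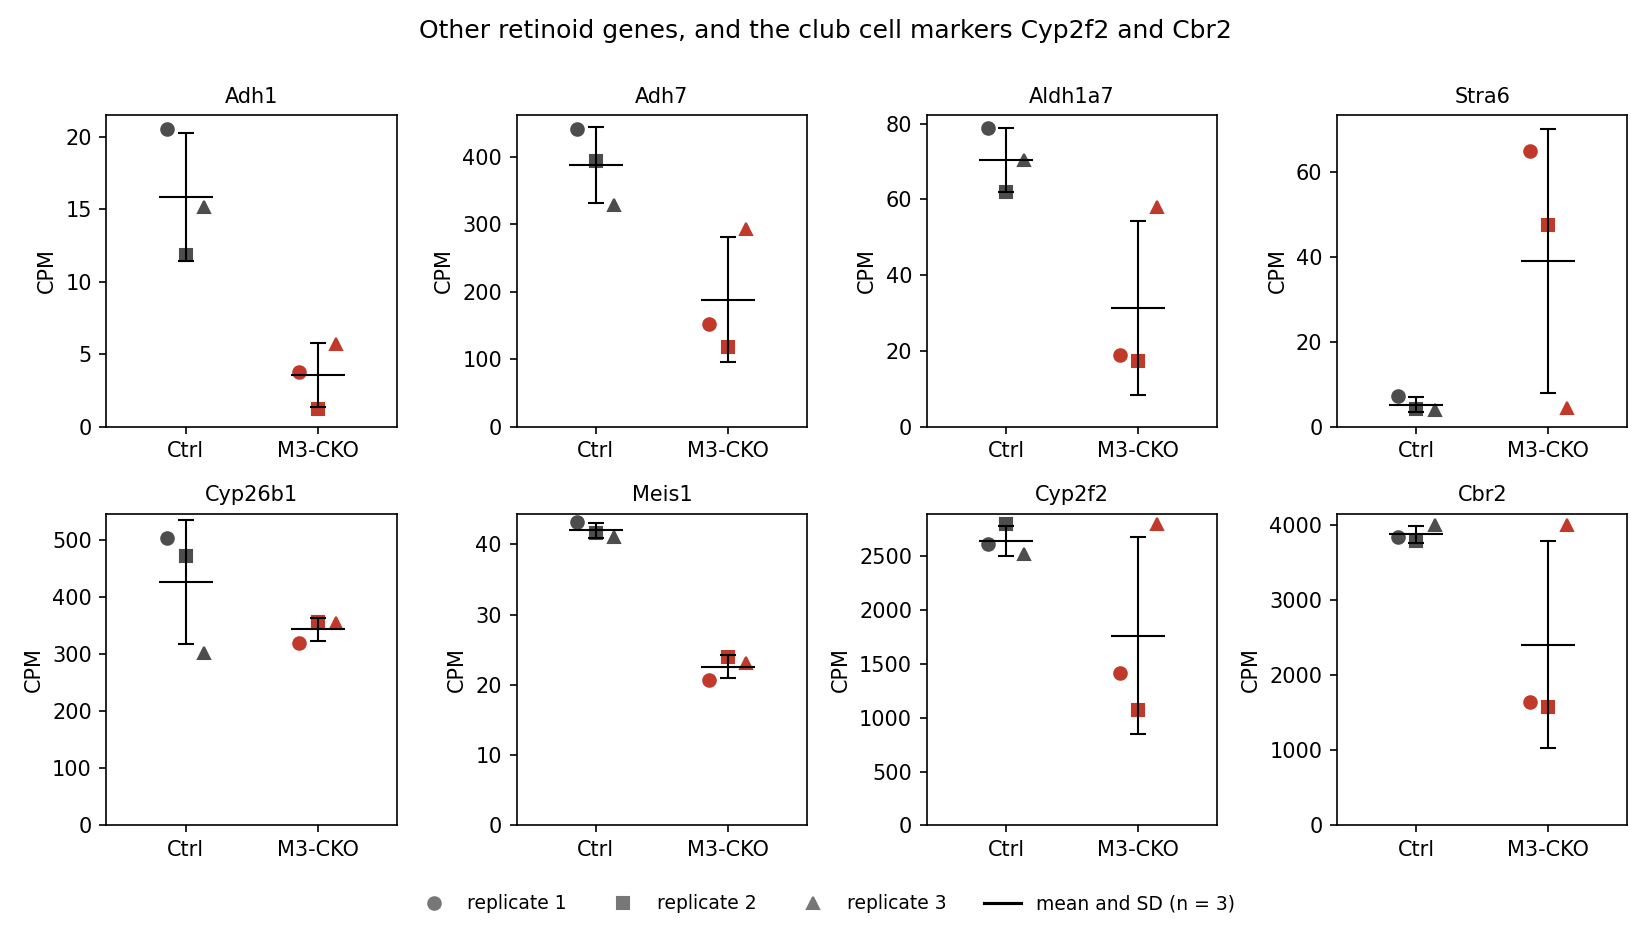
Level in CPM (vertical axis, from 0, scaled per gene) of 6 other retinoid genes and of the club cell markers Cyp2f2 and Cbr2 in the 3 Ctrl and 3 M3-CKO libraries, with the mean and SD as black bars. Meis1 and Adh1 are lower in all M3-CKO libraries, and for Adh7, Aldh1a7, Cyp2f2 and Cbr2 the M3-CKO replicate 3 (triangle) lies well above the other 2.

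Of the receptor partners and coregulators 16 of 18 listed were tested, with 0 called by edgeR or DESeq2. At an unadjusted p under 0.05 there were 2, both lower, where 20.5% of all tested genes passed in either direction. EdgeR called 2.91% and DESeq2 7.54% of all genes. Rxra, the retinoid X receptor that pairs with retinoic acid receptors, measured 247 to 279.9 CPM across Ctrl against 201, 191 and 221 across M3-CKO. Its groups did not overlap (log2 fold change -0.38, SE 0.14, adjusted p = 0.19). Rxrb, its sister gene, differed by -0.25 on the log2 scale (SE 0.15, adjusted p = 0.42), and Rxrg has no row. Nrip1, a corepressor that retinoic acid induces, measured 533 to 679 CPM across Ctrl against 500.3, 531 and 236 across M3-CKO (-0.56, SE 0.30, adjusted p = 0.35). For 7 of the 16 genes the groups did not overlap with M3-CKO lower, and for 0 with M3-CKO higher, beside 13.5% and 13.7% of all tested genes.

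Genes known as retinoic acid targets in other tissues had 13 tested members of 19 listed, some of them also in the lists above. Meis1, a homeodomain transcription factor, fell, with 43.2, 41.7 and 41.1 CPM across Ctrl against 20.8, 24.0 and 23.1 across M3-CKO (log2 fold change -0.89, SE 0.16, adjusted p = 0.037). No other gene of this list was called by edgeR, which called 2.91% of all tested genes. DESeq2 called 3 of the 13 it tested in this list, where it called 7.54% of all genes. The edgeR adjusted p of Meis1 was 0.11 to 0.17 without any 1 library other than M3-CKO replicate 3, and 0.12 with a replicate block. Tgm2, a transglutaminase long used as a readout of retinoic acid, measured 1175, 626 and 744 CPM across Ctrl against 433, 402 and 372 across M3-CKO. Its groups did not overlap (-1.08, SE 0.25, adjusted p = 0.065). Of the 13 genes, 3 had a positive and 10 a negative log2 fold change, with a median of -0.20. Over all tested genes 7019 were positive and 6509 negative, with a median of 0.02. Rarb, the gene with the textbook response element, is not in this list and stood at 1.10.

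Squamous genes known to rise in epithelia that lack retinoids had 10 tested members of 12 listed, and they went both ways. All 7 tested hillock and squamous markers described above are among these 10. The 3 calls here are therefore the same calls and not a separate result. The keratin Krt4 and the cornified envelope gene Sprr1a were called lower (log2 fold change -1.82, SE 0.27, adjusted p = 0.027, and -0.95, SE 0.18, adjusted p = 0.039). Lor, which encodes loricrin of the cornified envelope, was called higher (4.61, SE 0.73, adjusted p = 0.029), from at most 4 counts in any Ctrl library, so that its size depends on the prior count of the fit. The median over the 10 genes was -0.47, beside 0.02 over all tested genes, of which edgeR called 1.74% higher and 1.16% lower. None of the 3 calls held in edgeR without any 1 library other than M3-CKO replicate 3, nor with a replicate block, and Sprr1a was also lost with library size alone (adjusted p = 0.051).

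The genes whose pattern over the 6 libraries was most like that of Aldh1a3 were Prkaca, Chid1, Ugt1a6b, Tbck and Krt4. Their Pearson r of log2(CPM + 1) with Aldh1a3 was 0.993 to 0.999, the highest of 10512 genes with a mean of at least 5 CPM. The 6 points share the group difference and the libraries, so r is a description of order and not a test. The sizes differed: Tbck stood at -0.20 on the log2 scale (SE 0.15), Prkaca, a catalytic subunit of protein kinase A, -0.46 (SE 0.14), and Chid1 -1.22 (SE 0.24). Ugt1a6b, a glucuronosyltransferase that shares exons with neighbouring family members and whose count is uncertain, stood at -1.71 (SE 0.34).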

How the data were processed

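The authors deposited 1 table of whole-number counts per gene symbol with 6 RNA-seq columns. The submitters' processing notes name Trim Galore, HISAT2, featureCounts and the build mm39. The sources used here give no version, annotation, strand setting or handling of multi-mapped reads, so counts of near copies such as Aldh1a1 and Aldh1a7 are uncertain. Columns were matched to samples by name. Counts were tested with edgeR 4.0.16 in R 4.3.3: filterByExpr, TMM, glmQLFit and glmQLFTest, two-sided, with Benjamini-Hochberg adjustment over 13528 genes and calls under 0.05. SE is the fold change over the square root of F. The edgeR code was first tested on simulated data. DESeq2 1.42.0 and limma 3.58.1 (voom) served as alternatives, beside other scalings, other filters, a replicate block and leaving out each library. A level of 0 counts allows 3 counts, for counting error only. Of 152 symbols in all lists, cell type markers included, 125 had a row. Promoters came from RefSeq.

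The genes and lists were chosen with earlier results of these data known. Named genes were the 9 retinoic acid genes, Mettl3, up to 4 called genes per list with the lowest adjusted p, 17 fixed retinoid genes, and the 5 genes most like Aldh1a3 of at least 5 CPM; some listed genes are not reported here.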

Additional observations from a re-analysis of the deposited data

How the results depend on the processing

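Over all genes edgeR called 393. The count was 1200 with the DESeq2 Wald test, 740 with no low-count filter, 20 with a replicate block, and 0 to 3483 when 1 library was left out. Of the retinoic acid genes 1 was called; it was 2 with DESeq2 size factors, with the DESeq2 Wald test, with no low-count filter and with the stricter filter, each time by the addition of Rarb. It was 0 with a replicate block and 0 to 6 with 1 library left out. Of the other pathway genes, those of the squamous list included, 5 were called. That count was 14 with the DESeq2 Wald test, 10 with no low-count filter, 0 with a replicate block, and 0 to 27 with 1 library left out. The highest of each range is without M3-CKO replicate 3. Limma-voom and library size alone kept all 3 counts within 1.5 times. Replicate numbers paired nothing: the correlation of same-numbered libraries' deviations from their group means was -0.02, 0.02 and -0.11. Of 468 single-gene values under alternatives, over 36 named genes, 466 kept their direction. The others were Crabp2, at -0.08 without Ctrl replicate 3 and -0.35 without M3-CKO replicate 1; its highest was 0.60, without M3-CKO replicate 3. The causes were not tested. Depth limited what could be said of Crabp2 and Aldh1a2.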

Other observations

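For some other retinoid genes M3-CKO replicate 3 lay far from replicates 1 and 2 (chosen after their values were seen). Akr1b3, an aldose reductase that can also reduce retinal, measured 12.6 to 13.8 CPM across Ctrl against 14.8, 12.1 and 55.7 across M3-CKO. Meis2, a homeodomain factor related to Meis1, measured 46.8 to 108 CPM across Ctrl against 32.7, 49.5 and 8.54 across M3-CKO, with replicate 1 also below the Ctrl range. Aldh3a1, an aldehyde dehydrogenase of cornea and other exposed epithelia, showed no such split: it measured 16.1, 39.2 and 28.8 CPM across Ctrl against 11.1, 9.36 and 10.5 across M3-CKO (log2 fold change -1.44, SE 0.33, adjusted p = 0.065 in edgeR). Its 3 M3-CKO libraries lay close together below the lowest Ctrl library.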
